A study of Mus musculus with 55 samples.

Results

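The enzymes that write, keep and erase cytosine methylation, and those that feed or follow them, were examined as 10 genes: Tet1, Tet2, Tet3, Dnmt1, Dnmt3a, Dnmt3b, Uhrf1, Idh1, Idh2 and Tdg. They were picked by symbol, not by level, though with earlier results of these data known. All 10 were found among the 55421 genes of the first count table and among the 35976 genes used of the second. Each was described in 6 populations of mouse bone marrow and in both genotypes of the first set.

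The first set held 46 bulk RNA-seq libraries of cells sorted by surface markers: LT-HSC and ST-HSC, the long-term and short-term hematopoietic stem cells, CMP, the common myeloid progenitor, with GMP and MEP, which give granulocytes and macrophages or megakaryocytes and red cells, and CLP, the common lymphoid progenitor. Each population had 4 WT and 4 Tet2-/- libraries, except that 3 WT libraries were used for LT-HSC and for ST-HSC. Tet2-/- mice carried floxed Tet2 (Tet2 f/f) and Mx1-Cre, an interferon-inducible Cre that is also active outside blood cells. They were given 5 doses of poly(I:C), a double-stranded RNA mimic, at 4 weeks of age, and the first-set cells were taken 16 weeks after induction. The sources used here do not say whether the WT mice sequenced here received poly(I:C). The second set held 9 libraries of LT-HSC, with WT, Tet2;Sting DKO and Sting-/- mice giving 3 each. The DKO mice were Tet2 f/f, Mx1-Cre on a Sting-/- background and were induced in the same way. The labels give 200 cells per library. A replicate number recurs across populations of 1 genotype but is not stated to mark 1 mouse, so p-values measure the spread between libraries.

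DNA methyltransferases add a methyl group to cytosine in CpG pairs. Dnmt3a and Dnmt3b set new marks, while Dnmt1, led by Uhrf1 to hemimethylated DNA behind the replication fork, copies existing ones. The TET dioxygenases oxidise 5-methylcytosine with 2-oxoglutarate as co-substrate, which the isocitrate dehydrogenases Idh1 (cytosol) and Idh2 (mitochondria) make from isocitrate, and Tdg cuts out the most oxidised forms for base excision repair. TET2, DNMT3A, IDH1 and IDH2 are among the genes most often mutated in myeloid neoplasms.

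The genes lie apart in the genome (mm10, GENCODE vM21). The TET genes are Tet1 at chr10:62804570-62908996, Tet2 at chr3:133463679-133545139 and Tet3 at chr6:83362373-83459084, all on the minus strand. The methyltransferases are Dnmt1 at chr9:20907209-20959888 (minus), Dnmt3a at chr12:3806007-3914443 (plus) and Dnmt3b at chr2:153649450-153687730 (plus), with Uhrf1 at chr17:56303321-56323486 (plus). Idh1 lies at chr1:65158616-65186500 (minus), Idh2 at chr7:80094846-80115392 (minus) and Tdg at chr10:82629828-82650799 (plus). All values below are counts over whole genes.

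Levels are given as CPM, which are counts scaled to a common library size with TMM factors, and levels of different genes are compared only as CPM per kilobase of summed exon length. Libraries of the first set held 50458473 to 102148079 counts (median 70118186.5) and those of the second 26776517 to 78682096 (median 40641627). In every library of its own label, the summed CPM of 4 of the 6 gate marker lists exceeded that in all other first-set libraries. The LT-HSC list reached 369 to 654 in LT-HSC and at most 351 elsewhere, the GMP list 32617 to 45825 against at most 12597, the MEP list 13624 to 19480 against at most 5793, and the CLP list 560 to 2426 against at most 240.3. The CMP list was higher in GMP (19448 to 27575) than in CMP (2193 to 3754). The ST-HSC and LSK list had its highest means in ST-HSC (1100 to 1427), overlapping LT-HSC (738 to 1301). The CLP libraries were uneven. Rag1 was at 0 in all 4 WT CLP libraries, and the GMP list ranged from 2.84 to 12597 CPM among CLP libraries. Summed macrophage and monocyte markers were at 643 to 1861 CPM in WT CLP and 305 to 1438 in Tet2-/- CLP, beside 526 to 1215 in WT GMP. B cell markers were at 567 to 1265 in WT CLP and 211 to 669 in Tet2-/- CLP. The part of these markers in the CLP results was not tested. The median coefficient of variation over the 10 genes was 74.4% in WT CLP and 77.7% in Tet2-/- CLP, against 15.4% to 21.5% in CMP, GMP and MEP and 30.3% to 41.9% in LT-HSC and ST-HSC. In bulk RNA of sorted cells, fewer cells of a type and less RNA per cell cannot be told apart.

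Per kilobase, the dehydrogenases were the most abundant of the 10 genes in both WT GMP and WT LT-HSC. Idh2 led in WT GMP at 192 CPM per kb, followed by Idh1 at 94.6, Uhrf1 at 31.8, Dnmt1 at 18.7 and Dnmt3b at 8.23. The TET genes lay lower, between 0.947 for Tet1 and 2.23 for Tet2 in the same cells. In WT LT-HSC the order was Idh1 (17.2), Idh2 (14.2), Uhrf1 (9.46), Dnmt3b (5.47), Dnmt1 (5.34), Tet1 (2.01), Tet3 (2.01), Dnmt3a (1.76), Tet2 (0.785) and Tdg (0.392). Idh1, Idh2, Uhrf1, Dnmt1 and Dnmt3b were the 5 highest in every first-set group except Tet2-/- CLP, where Tet2 took the fifth rank. A count of 0 was found for 4 of 80 values in CLP and 2 of 70 in LT-HSC and in no other population of the first set.

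Differences among the 6 populations of 1 genotype were tested with an F test in edgeR, and a gene was called at a Benjamini-Hochberg adjusted p below 0.05 with at least a 2-fold span between the highest and lowest population. In WT, 5 of 10 genes were called, against 42.8% of the 20006 genes tested: Idh1, Idh2, Dnmt1, Uhrf1 and Dnmt3a. In Tet2-/-, 8 of 10 were called, against 38.9% of 19415, the further genes being Tet1, Tet2 and Dnmt3b. Of these 8, Dnmt1 and Uhrf1 each lost the call in 21 of 24 leave-outs of 1 library. With the replicate number added to the fit as a block, 4 genes were called in WT (not Dnmt3a). In Tet2-/- 6 were called (not Dnmt1 or Uhrf1). Over all genes the block gave 7287 calls for 8557 in WT and 6886 for 7562 in Tet2-/-. GMP held the highest WT mean for 8 of the 10 genes, all but Tet1 (highest in ST-HSC) and Tet3 (highest in LT-HSC). In Tet2-/- it did so for 7. Of the 8 WT genes, Tet2, Dnmt3b and Tdg were not called across WT populations. The share of all genes with their highest mean in GMP was not determined, so these counts have no background beside them. Ordered by mean, most neighbouring populations overlapped: the libraries of neighbours stood apart in 12 of 50 WT pairs and 8 of 50 Tet2-/- pairs, beside 11.2% and 7.53% of such pairs over all genes tested. Without the CLP libraries, a choice made after seeing the data, 8 genes were called in WT (43.5% of all genes), and without any 1 of the 4 WT GMP libraries it was 2, Idh1 and Idh2 (38.4% to 39.3% of all genes).

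**Figure D1:**
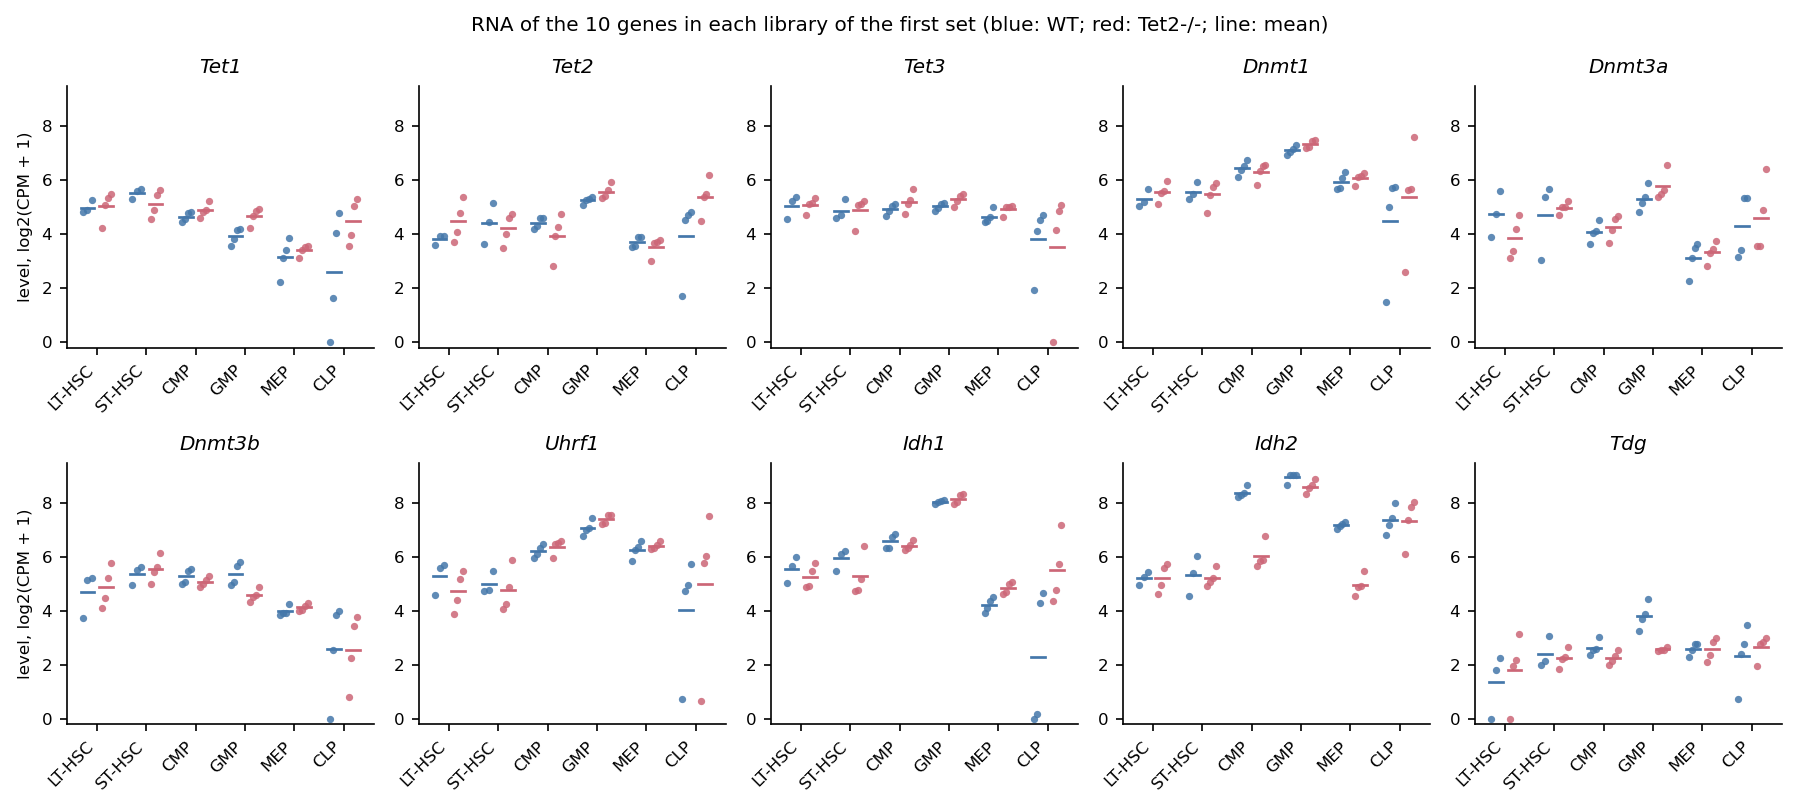
Level of each gene in each of the 46 first-set libraries as log2(CPM + 1) (vertical axis) by population (horizontal axis), with WT in blue, Tet2-/- in red and group means as lines. GMP carries the highest WT mean for 8 of 10 genes, the CLP points scatter most, and Idh2 is the panel in which the colours part in CMP and MEP.

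The 3 TET genes had different profiles. WT Tet1 stood at 37.5, 28.6 and 27.3 CPM in LT-HSC and at 50.3, 48.4 and 38.7 in ST-HSC. It stood at 27.7, 21.0, 22.8 and 26.4 in CMP, at 16.8, 13.3, 10.9 and 17.6 in GMP and at 7.64, 3.77, 13.6 and 9.66 in MEP. By mean, stem cells were the high end and MEP the low end, with ST-HSC clear of LT-HSC and CMP clear of GMP, but the F test did not call it in WT (span 2.44 log2, adjusted p = 0.233). In Tet2-/- the order of means was the same and the test called it (span 1.89, adjusted p = 0.0079).

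WT Tet2 was lowest in MEP and LT-HSC and highest in GMP. Its levels were 14.3, 14.2 and 11.2 CPM in LT-HSC, 38.6, 33.0, 37.8 and 41.2 in GMP, and 13.9, 10.7, 13.9 and 10.7 in MEP. The GMP libraries lay above all LT-HSC and MEP libraries, while no neighbours in the full order stood apart (GMP, ST-HSC, CMP, CLP, LT-HSC, MEP), and the span of 1.68 log2 had an adjusted p of 0.0593. The RNA of the deleted gene was still counted in Tet2-/- libraries. It reached 60.1, 49.1, 39.5 and 42.2 CPM in Tet2-/- GMP and 12.2, 13.0, 7.04 and 11.7 in Tet2-/- MEP. Tet2-/- and WT libraries overlapped in all 6 populations, with log2 fold changes from -0.37 (CMP, 95% interval -1.20 to 0.46) to 1.23 (CLP, -0.49 to 2.94), none called. The ST-HSC value of -0.24 became 0.24 without WT ST-HSC replicate 2. Counts summed over the gene do not show whether the floxed exons are present, so they do not check the genotype. In the Tet2-/- libraries Tet2 was called across populations (span 2.18, adjusted p = 0.00235).

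Tet3 was the most even member in WT, whereas in Tet2-/- Tdg was (1.53-fold between its highest and lowest means, against 1.99-fold for Tet3). The WT means of Tet3 ran from 16.8 ± 10.0 CPM (SD, n = 4) in CLP to 33.5 ± 9.66 (n = 3) in LT-HSC, and it was called in neither genotype (adjusted p = 0.339 in WT, 0.912 in Tet2-/-). The make-up of the TET pool differed between populations. Per length, Tet2 was 16.4 ± 1.0% of the summed TET level in WT LT-HSC (SD, n = 3), 26.6 ± 3.17% in CMP, 43.9 ± 3.27% in GMP and 26.4 ± 1.47% in MEP (n = 4 each). Tet1 was 49.9 ± 6.54% in ST-HSC and 18.4 ± 2.56% in GMP, and Tet3 was largest in MEP at 53.5 ± 8.85%. GMP shares of Tet2 (40.4% to 48.2%) did not overlap those of LT-HSC, ST-HSC, CMP or MEP (14.6% to 29.5%), but lay within those of WT CLP (8.23% to 58.3%). In Tet2-/- cells the share was 41.7 ± 5.53% in GMP and 18.8 ± 8.07% in CMP, each overlapping WT. These shares are descriptions without a test.

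**Figure D2:**
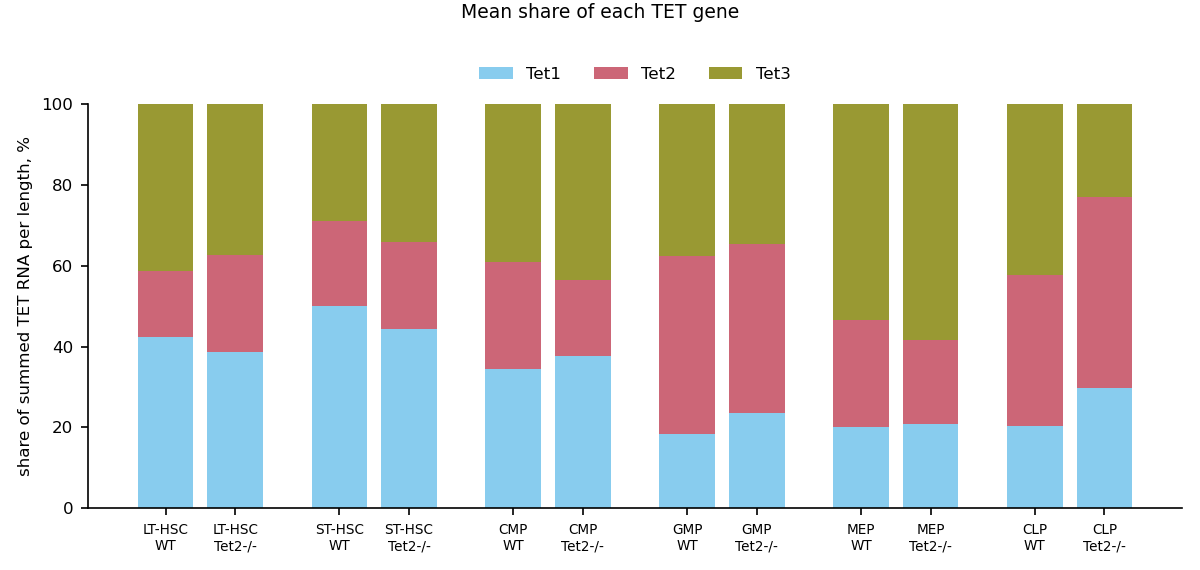
Mean share of Tet1, Tet2 and Tet3 in their summed level per kilobase (vertical axis, %) for each population and genotype (horizontal axis), stacked to 100. The Tet2 band is widest among WT groups in GMP (43.9%) and narrowest in LT-HSC (16.4%).

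The maintenance pair Dnmt1 and Uhrf1 followed each other. WT Dnmt1 was at 50.1, 31.8 and 36.2 CPM in LT-HSC, at 108, 82.5, 91.0 and 69.6 in CMP, and at 132, 143, 121 and 157 in GMP. WT Uhrf1 was at 51.2, 22.8 and 46.8, at 88.6, 61.2, 67.6 and 79.4, and at 134, 127, 109 and 171 in the same groups. For both genes the GMP libraries stood clear of the next population, CMP for Dnmt1 and MEP for Uhrf1. Both were called across populations in WT (Dnmt1 span 2.05 log2, adjusted p = 0.0236; Uhrf1 2.36, 0.0305) and in Tet2-/- (Dnmt1 1.89, 0.0458; Uhrf1 2.65, 0.0449). The WT calls were lost when single libraries were left out in 4 of 22 settings for Dnmt1 and 6 of 22 for Uhrf1, and the Tet2-/- calls in 21 of 24 for each. The Tet2-/- calls were also lost with RLE scaling (adjusted p = 0.0694 for Dnmt1 and 0.0579 for Uhrf1) and without the filter on low counts (0.074 and 0.0661). The replicate number as a block ended them too (adjusted p = 0.0622 and 0.0658). Neither gene was called between genotypes in any population.

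Across the 46 libraries the log2 levels of the pair had a Pearson r of 0.926 and a Spearman rho of 0.847, given without a p because libraries of a population share their cells' make-up. Uhrf1 was the gene most like Dnmt1 among 22360. The value of r was lower without 2 CLP libraries. WT CLP replicate 4 held Dnmt1 at 1.82 CPM and Uhrf1 at 0.659, and Tet2-/- CLP replicate 2 held them at 5.09 and 0.573. Without these 2 libraries r was 0.827, and without all CLP libraries 0.814 over 38. The same 2 libraries had the lowest summed CPM of 15 replication and mitosis genes among the CLP libraries, 541 and 299 against 1187 to 2691 in the other 6. Tet2-/- CLP replicate 3, with Dnmt1 at 192 and Uhrf1 at 181 CPM, carried the GMP list at 12597. The part of these values in the result was not tested.

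**Figure D3:**
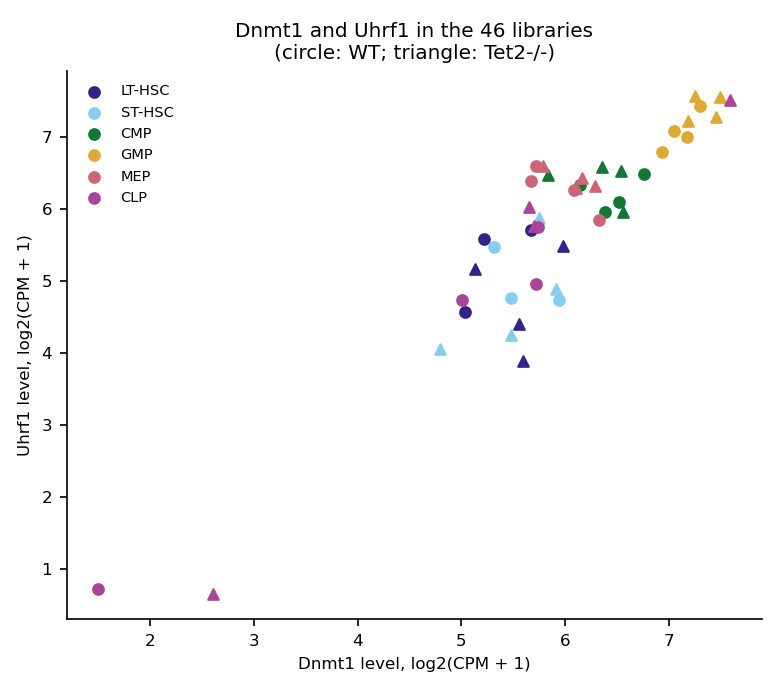
Level of Uhrf1 (vertical axis) against Dnmt1 (horizontal axis), both log2(CPM + 1), with 1 point per first-set library, coloured by population (circle WT, triangle Tet2-/-). GMP libraries and 1 CLP library sit at the upper right, and 2 CLP libraries stand far below the rest.

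Promoter sequence is shown for this pair because both genes moved together and because E2F factors, which drive S-phase genes, bind a GC-rich word, searched as TTTCCCGC, TTTCGCGC, TTTGCCGC and TTTGGCGC on both strands. Windows run from 250 bases before to 50 after each RefSeq start (GRCm38.p6, the mm10 build). All 10 genes matched, with 16 windows. A match was found in 744 of 32851 windows (2.265%), in 5.056% of the 3837 windows with 30 or more CpG pairs, and among the 16 windows in 1 of Dnmt1 and 1 of Uhrf1 alone. The Dnmt1 window lies at chr9:20952574-20952873 on the minus strand and the Uhrf1 window at chr17:56304063-56304362 on the plus strand. Both sequences read 5′ to 3′, with matches in capitals, and no match overlapped a CCAAT or GGGCGG word.
Dnmt1: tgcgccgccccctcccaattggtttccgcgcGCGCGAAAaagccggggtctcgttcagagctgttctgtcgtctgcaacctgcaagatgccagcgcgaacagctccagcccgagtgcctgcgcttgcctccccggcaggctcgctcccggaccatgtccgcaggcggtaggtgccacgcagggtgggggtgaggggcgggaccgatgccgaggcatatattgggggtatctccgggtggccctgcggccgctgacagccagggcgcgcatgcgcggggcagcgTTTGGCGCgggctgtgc
Uhrf1: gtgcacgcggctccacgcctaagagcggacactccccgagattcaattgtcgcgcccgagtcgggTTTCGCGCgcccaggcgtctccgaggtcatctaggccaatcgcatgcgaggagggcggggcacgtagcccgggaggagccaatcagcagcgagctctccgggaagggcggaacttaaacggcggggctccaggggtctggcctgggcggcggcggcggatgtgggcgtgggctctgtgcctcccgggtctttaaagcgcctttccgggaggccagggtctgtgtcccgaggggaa
In Dnmt1 the matches began at -219 and 34 relative to the start and in Uhrf1 at -185. A match is a description of letters, not a measured binding site. CpG pairs in the 16 windows ranged from 2 to 57 against a median of 7 over all windows, with the Tet2 window at 57.

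Of the de novo enzymes, Dnmt3a was called across populations in both genotypes (WT span 2.35 log2, adjusted p = 0.0465; Tet2-/- 2.67, 0.00444) while Dnmt3b passed the threshold in Tet2-/- but not in WT (WT 2.39, 0.134; Tet2-/- 2.85, 0.0053); the difference between genotypes was not called for either (interaction adjusted p = 0.994 and 1). The WT Dnmt3a call was lost in 15 of 22 leave-outs of 1 library and without the filter on low counts (adjusted p = 0.0679). It was also lost with the replicate number as a block (adjusted p = 0.101). WT Dnmt3a was at 35.0, 40.4, 27.3 and 59.2 CPM in GMP and at 3.82, 11.4, 10.3 and 7.68 in MEP, so these groups stood apart. WT Dnmt3b was at 47.9, 44.9 and 30.5 in ST-HSC, 14.1, 17.9, 14.2 and 13.5 in MEP and 13.6, 0, 14.9 and 4.87 in CLP. Per length, Dnmt3a made up less than Dnmt3b by mean share in every first-set group outside CLP. In CLP its mean share was 49.8% in WT, where single libraries ran from 14.1% to 100% and 1 held no Dnmt3b, and 58.8% in Tet2-/-. It was 11.6 ± 2.25% of their sum in WT CMP (SD, n = 4) and 23.4 ± 8.41% in WT GMP. Without division by length the mean Dnmt3a share was 51.1% in WT LT-HSC and 69.6% in Tet2-/- GMP. It was at most 48.9% in the other first-set groups outside CLP, so the order of the 2 genes depends on that division. Dnmt3aos, a gene on the other strand, shares 133 exonic bases with Dnmt3a, and whether counting used strand is not given in the sources used here.

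Between genotypes, Dnmt3b moved in GMP. WT GMP held 49.9, 55.6, 29.9 and 32.7 CPM and Tet2-/- GMP 22.1, 22.9, 28.5 and 19. All 4 Tet2-/- libraries were below all 4 WT libraries, by 0.89 on the log2 scale (SE 0.22, adjusted p = 0.035), which passed the p threshold but not the 2-fold limit. Without WT GMP replicate 4, or without Tet2-/- GMP replicate 4, the change was -1.01 and the gene was called (adjusted p = 0.0251 and 0.0391). Summed MEP markers were at 102.5 to 128 CPM in WT GMP and 174 to 194 in Tet2-/- GMP, and ST-HSC markers at 729 to 925 and 940 to 1091, both without overlap. Their part in the Dnmt3b difference was not tested. Dnmt3a in Tet2-/- GMP was at 44.2, 94.2, 41.4 and 48.6 CPM, overlapping WT (log2 fold change 0.47, SE 0.29, adjusted p = 0.481). The Dnmt3a share there was 42.2 ± 10.6% per length (n = 4), with a range of 30.8% to 55.8% that overlapped the WT range of 17.7% to 35.7%.

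The dehydrogenases showed the widest range across populations. WT Idh1 was at 259, 265, 247 and 277 CPM in GMP, 106, 80.3, 116 and 80.2 in CMP, 19.5, 21.7, 16.1 and 14.2 in MEP, and 24.3, 18.4, 0.126 and 0 in CLP. GMP was clear of CMP, CMP of ST-HSC and LT-HSC of MEP. Idh1 was called across populations in WT (span 4.65 log2, adjusted p = 0.00761) and in Tet2-/- (3.40, 1.67e-05). Idh2 was called with smaller p in both (WT span 3.79, 2.17e-08; Tet2-/- 3.71, 7.02e-08). WT Idh2 means ran from 36.8 ± 6.33 CPM in LT-HSC and 42.6 ± 21.0 in ST-HSC (n = 3 each) to 336 ± 44.8 in CMP and 496 ± 62.0 in GMP (n = 4 each), with 144 ± 10.9 in MEP and 171 ± 61.6 in CLP. The order was GMP, CMP, CLP, MEP, ST-HSC and LT-HSC, in which CLP overlapped MEP and ST-HSC overlapped LT-HSC.

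In the Tet2-/- libraries GMP was the high end of Dnmt1, Uhrf1 and Idh1, as in WT. In GMP they held Dnmt1 at 145, 179, 152 and 174 CPM, clear of CMP at 91.9, 93.5, 80.9 and 56.2. They held Uhrf1 at 148, 186, 188 and 154 in GMP, clear of MEP at 96.0, 77.6, 78.8 and 85. They held Idh1 at 261, 313, 246 and 322 in GMP, clear of CMP at 85.4, 99.2, 76.2 and 78.9. The low end of these 3 genes, CLP in WT, was ST-HSC for Dnmt1, LT-HSC for Uhrf1 and MEP for Idh1. Dnmt3b differed from them, with its highest Tet2-/- mean in ST-HSC (70.3, 31.0, 49.0 and 42.1 CPM) and GMP below ST-HSC, CMP and LT-HSC. MEP, at 15.3, 18.6, 17.3 and 15.1, stood clear of both GMP and CLP for this gene. Idh2 in Tet2-/- had CLP and then CMP behind GMP, and MEP last, 12.6-fold below GMP, where the WT last place was LT-HSC.

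Steps between WT populations were tested as contrasts in 1 fit of the 22 WT libraries. Idh2 was the 1 gene of 10 called higher in CMP than in ST-HSC, by 2.98 log2 (SE 0.31, adjusted p = 6.55e-06; 3.77% of genes were called higher). It was also the 1 gene called higher in CLP than in ST-HSC, by 1.99 (SE 0.30, adjusted p = 5.68e-05; 10.2% called higher), and the 1 gene called lower in MEP than in CMP, by -1.27 (SE 0.26, adjusted p = 0.00372; 5.52% called lower). From GMP to CLP 5 of 10 were called lower, against 12.9% of all genes: Idh1 (-4.65), Dnmt3b (-2.39), Uhrf1 (-2.36), Dnmt1 (-2.05) and Idh2 (-1.58). With only GMP and CLP fitted Idh2 alone was called (16.5% of all genes in either direction), and Dnmt3b lost its call in 18 of 22 leave-outs. Dnmt3b also lost it with the replicate number as a block (adjusted p = 0.0589). Counts of the other steps also moved. With only the 2 populations compared, 2 genes were called from ST-HSC to CMP, 3 from CMP to GMP and 4 from CMP to MEP, beside 12.2%, 13.5% and 14.7% of all genes in either direction. Uhrf1 joined the CMP call without WT CLP replicate 4 (2 genes), and the CLP against ST-HSC count was 3 without WT CLP replicate 2 or 3 and 2 without replicate 4 or 5. For MEP against CMP it was 2 without WT CLP replicate 3 or 5. Over all genes these fits called 6.61% for CMP, 24.9% to 26% for CLP and 7.6% to 7.62% for MEP in either direction. None of the 10 was called between ST-HSC and LT-HSC (0.175% in either direction; 0 at an unadjusted p below 0.05) or between GMP and CMP (3.15%; 2 at an unadjusted p below 0.05). DESeq2 also gave 0 in both. Of 15 replication and mitosis genes, 6 were called higher in CMP than in ST-HSC (median 1.27 against 0 over all genes) and 11 lower in CLP than in GMP (median -1.39 against -0.34).

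Idh2 had the largest called difference between genotypes among the 10 genes. In CMP it stood at 301, 315, 401 and 326 CPM in WT and at 110, 55.9, 58.2 and 50.1 in Tet2-/-. In MEP it stood at 157, 132, 140 and 149 in WT and at 44.1, 28.8, 22.6 and 29.6 in Tet2-/-. In both populations every Tet2-/- library was below every WT library. The mean was 4.91-fold lower in CMP and 4.61-fold lower in MEP. The log2 change was -2.31 in CMP (SE 0.25, 95% interval -2.87 to -1.76, adjusted p = 0.000516) and -2.21 in MEP (SE 0.20, -2.67 to -1.75, adjusted p = 0.00022).

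Idh2 was not called between genotypes in the other populations. It was at 529, 522, 403 and 530 CPM in WT GMP and at 319, 408, 375 and 468 in Tet2-/- GMP, which overlapped (log2 change -0.37, SE 0.13, adjusted p = 0.129). LT-HSC held 42.8, 30.2 and 37.4 against 29.8, 46.8, 52.1 and 24.0, and ST-HSC 22.6, 64.5 and 40.8 against 49.8, 29.5, 36.5 and 32.5. CLP held 172, 255, 110 and 146 against 68.2, 232, 262 and 165. The log2 changes there were 0.07, -0.17 and 0.10, none called. Each changed sign when 1 library was left out. In LT-HSC it lay between -0.11 and -0.05 without Tet2-/- replicate 3 or 4 or WT replicate 3, in ST-HSC it was 0.25 without WT replicate 3, and in CLP it lay between -0.13 and -0.07 without Tet2-/- replicate 3 or 4 or WT replicate 4. The genotype by population term itself was called for Idh2 (adjusted p = 0.000152, span of the genotype difference 2.38 log2) and for none of the other 9 genes (adjusted p at least 0.506), against 2.65% of 22360 genes.

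**Figure D4:**
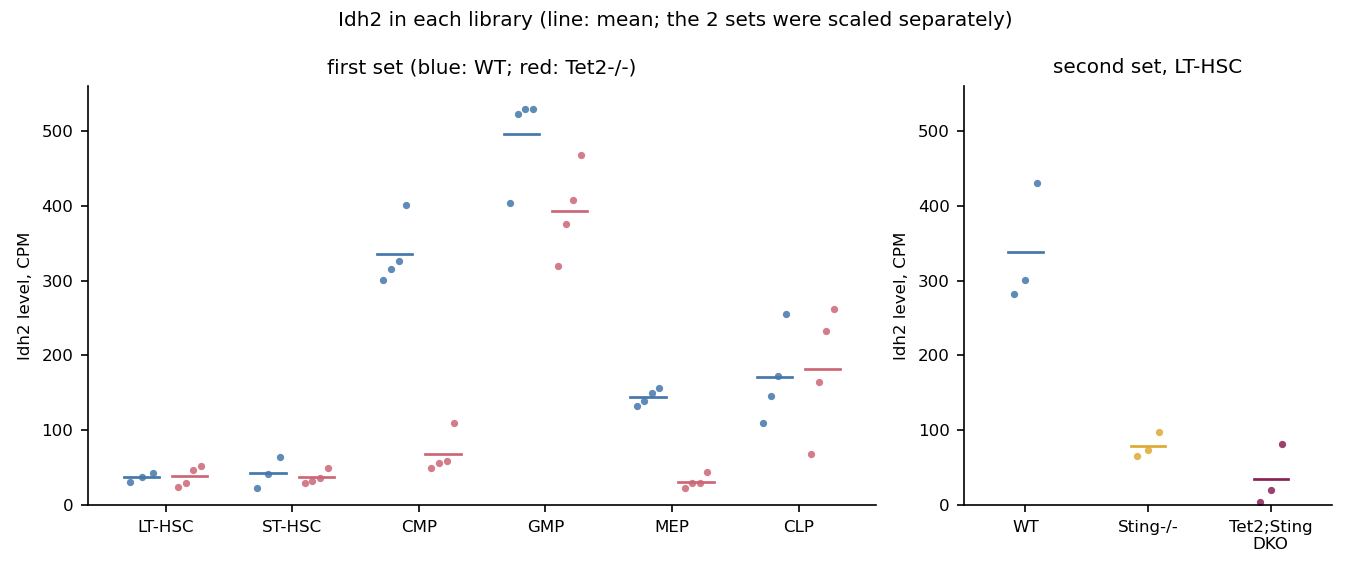
Idh2 level in CPM (vertical axis) in each library, by population and genotype in the first set (left) and by genotype in LT-HSC of the second set (right), with means as lines. Tet2-/- CMP (50.1 to 110) and MEP (22.6 to 44.1) lie below all WT libraries of the same population, and the sets were scaled separately.

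The same fall was not called in the genes around Idh2 on chromosome 7. Of 6 genes within 150 kb that were tested, none was called in CMP (log2 changes -0.86 to 1.18) or in MEP (-0.55 to 0.49), and 1, Zfp710, was higher in Tet2-/- GMP by 2.98 (SE 0.41, adjusted p = 0.000878). The subunits of the other mitochondrial isocitrate dehydrogenase were not lower by the test: Idh3a changed by 0.37 and 0.17, Idh3b by 0.13 and 0.24 and Idh3g by -0.06 and 0.16, none called. Marker levels moved with genotype. For the MEP list the summed CPM was 702 to 1692 in WT CMP and 2930 to 5793 in Tet2-/- CMP, and 13624 to 15307 against 14624 to 19480 in MEP. The LT-HSC list was at 45 to 66.4 in WT CMP and 67.6 to 80 in Tet2-/- CMP, and at 83.1 to 91.2 and 94.8 to 118 in MEP, without overlap. Idh2 in Tet2-/- CMP (50.1 to 110) was below its level in WT MEP (132 to 157). The part of these marker differences in the Idh2 result was not tested. The Idh2 promoter is shown as the single window of the gene with the largest genotype difference, at chr7:80115301-80115600 on the minus strand (GRCm38.p6), read 5′ to 3′, with capitals for CCAAT (in 37.408% of all windows, either strand) and GGGCGG (35.658%). It held 1 CCAAT at -44 and 2 GGGCGG words at -38 and -18.
Idh2: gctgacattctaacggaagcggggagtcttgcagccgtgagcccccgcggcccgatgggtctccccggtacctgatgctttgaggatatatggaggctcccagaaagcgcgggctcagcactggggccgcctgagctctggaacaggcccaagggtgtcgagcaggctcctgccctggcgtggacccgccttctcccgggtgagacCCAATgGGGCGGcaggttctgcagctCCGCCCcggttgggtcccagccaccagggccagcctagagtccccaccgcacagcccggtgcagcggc

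Idh1 was not called between genotypes in the populations where Idh2 was. In MEP, where Idh2 was lower, Idh1 was at 23.6, 32.9, 31.3 and 25.1 CPM in Tet2-/- and at 19.5, 21.7, 16.1 and 14.2 in WT, with no overlap. The log2 change was 0.64 (SE 0.19), short of the threshold (adjusted p = 0.102). In CMP, where Idh2 was also lower, the Idh1 change was -0.18 (SE 0.16, adjusted p = 0.611), with a 95% interval of -0.54 to 0.17. In GMP it was 0.09 (SE 0.11), with a 95% interval of -0.15 to 0.33.

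Tdg, the glycosylase at the end of the TET route, was lower in Tet2-/- GMP. WT GMP libraries held 13.8, 20.6, 12.1 and 8.57 CPM and Tet2-/- GMP libraries 4.69, 5.36, 4.91 and 4.92. The groups did not overlap, and the change was -1.50 log2 (SE 0.27, 95% interval -2.09 to -0.91, adjusted p = 0.00539), a mean 2.77-fold lower. The WT GMP mean of 13.8 ± 5.05 CPM was the highest of any first-set group, and the Tet2-/- mean of 4.97 ± 0.279 was within the range of the other WT means of that set (2.11 to 5.32). The MEP and ST-HSC markers that differed in these same libraries, given with Dnmt3b, apply here too, and their part in the Tdg result was not tested. With all 46 libraries in 1 fit the change was -1.47 and was not called (adjusted p = 1). Nor was the genotype by population term (adjusted p = 1). Tdg was not called across populations in either genotype (adjusted p = 0.278 and 0.978). The gene is low, with at most 1552 counts in a first-set library, and reads may be split with Tdg-ps, a pseudogene counted apart: in GMP it held 3.27, 4.75, 4.31 and 2.70 CPM in WT and 1.71, 2.40, 1.81 and 1.44 in Tet2-/-. Glt8d2 on the other strand shares 367 exonic bases with Tdg.

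Counted over the 10 genes, calls between genotypes were few: 1 lower in CMP (Idh2, against 3.92% of genes called lower), 1 lower in GMP (Tdg, 4.06%), 1 lower in MEP (Idh2, 4.21%) and none higher. Of all genes called in CMP, GMP and MEP, most were lower in Tet2-/- (629 of 734, 672 of 723 and 629 of 651). In LT-HSC, ST-HSC and CLP none of the 10 was called, against 0.0245%, 0.0185% and 0.00766% of genes in either direction; none had an unadjusted p below 0.05, and DESeq2 also called 0. Libraries of the genotypes did not overlap for 1 gene in CMP (Idh2; 15.8% of all genes tested), 3 in GMP (Tet1, Dnmt3b and Tdg; 13.3%), 2 in MEP (Idh1 and Idh2; 13%) and 0 in LT-HSC (7.08%), ST-HSC (8.14%) and CLP (3.89%). Of these, Tet1 in GMP and Idh1 in MEP were higher in Tet2-/-. Tet1 held 27.9, 29.5, 24.4 and 18 CPM against 16.8, 13.3, 10.9 and 17.6 in WT (log2 change 0.74, SE 0.21, adjusted p = 0.0674). The interval width set what could be seen. In CLP the 95% intervals of all 10 genes but Idh2 were wider than 3 log2 units.

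**Figure D5:**
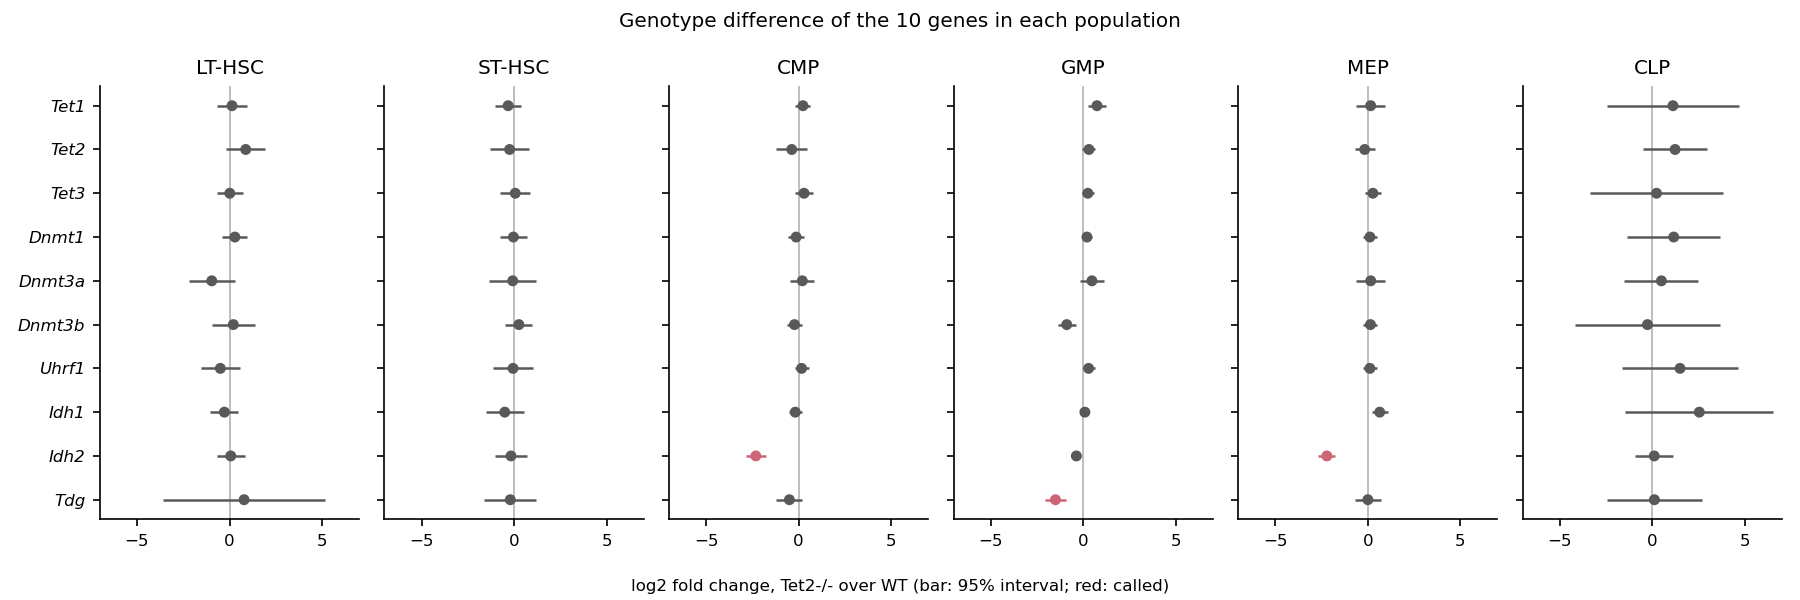
Log2 fold change of Tet2-/- over WT (horizontal axis) for each gene (vertical axis) in each population, with 95% intervals as bars and called genes in red. The 3 red points are Idh2 in CMP and MEP and Tdg in GMP, and the widest interval is that of Tdg in LT-HSC (-3.59 to 5.17).

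The other genes of the pathway were taken as 7 lists with 74 genes in all (methyl-CpG readers, cofactors, TET partners, base excision repair, deaminases and Gadd45 genes, S-adenosylmethionine supply, and 2-oxoglutarate supply and removal). Of 68 tested in CMP 1 was called lower, of 68 in GMP 2 and of 67 in MEP 1, with none called higher. Over all genes 3.92%, 4.06% and 4.21% were called lower, so these counts lie near the background. Their median log2 changes were 0.11, 0.09 and 0.18, beside 0.03, 0.03 and 0.05 over all genes. The gene called in all 3 was Ung, the uracil glycosylase of base excision repair, with changes of -1.62 in CMP (SE 0.20, adjusted p = 0.00111), -1.59 in GMP (SE 0.16, adjusted p = 0.000103) and -1.43 in MEP (SE 0.27, adjusted p = 0.0125). In GMP it held 92.0, 86.3, 76.9 and 76.5 CPM in WT and 24.4, 35.2, 30.2 and 22.5 in Tet2-/-, with no overlap. The other gene in GMP was Glud1, which makes 2-oxoglutarate from glutamate (-1.67, SE 0.21, adjusted p = 0.000486). Of the replication and mitosis list, Ccna2 (cyclin A2) alone was called, in GMP (-1.93, SE 0.15) and MEP (-1.23, SE 0.18), while the list medians were 0.04 and 0.20.

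In the second set Tmem173 counts did not separate the labels, and sex-linked genes differed with genotype. Counts over the whole of Tmem173, which encodes STING, do not check the genotype where a deleted allele still gives RNA. They were 1788, 1168 and 0 in WT. They were 6333, 0 and 3835 under the Sting-/- label and 0, 14 and 1128 under the DKO label. Y-linked Eif2s3y had 0 to 8 counts in WT and 7229 to 20154 in the others, whereas the first set had none. In the comparisons with WT, genotype and sex cannot be told apart. The genes were also noisier, with median coefficients of variation of 76.0% to 101%, and 7 of 90 values were 0.

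None of the 10 genes was called in any of the 3 comparisons, against 0.657% of genes for DKO over WT, 0.159% for DKO over Sting-/- and 0% for Sting-/- over WT. At an unadjusted p below 0.05 there were 1, 0 and 1. Idh2 was that gene in both. It held 431, 301 and 282 CPM in WT, 74.2, 65.9 and 98.1 under the Sting-/- label and 81.9, 20 and 3.54 under the DKO label. Both mutant groups were below all WT libraries, the 1 gene of 10 with no overlap in either comparison (25.1% and 13.5% of all genes tested). DKO and Sting-/- overlapped for all 10 genes (18.8% of all genes did not). The log2 change was -3.34 for DKO (SE 0.98, adjusted p = 0.192) and -2.07 for Sting-/- (SE 0.34, adjusted p = 0.692). DESeq2 called both (adjusted p = 0.0062 and 2e-08). Without the 3 mutant libraries holding 6333, 3835 and 1128 Tmem173 counts, a choice made after seeing the data, the edgeR changes were -2.80 and -2.33 for Idh2. This left 2 DKO libraries and 1 Sting-/- library, so the spread came mostly from WT, or from WT alone for Sting-/-, and the absence of a call there says nothing. These 2 comparisons share the WT libraries. Summed MEP markers were at 117 to 202 CPM in WT and 33.7 to 90.6 under the Sting-/- label, and T and NK cell markers at 47.5 to 60.8 in WT and 110.2 to 129 under the DKO label, both without overlap. Their part in the Idh2 difference was not tested. In the first set Idh2 was not lower in Tet2-/- LT-HSC. Tet2 itself was at 25.0, 0 and 0 CPM in WT, 9.45, 41.5 and 1.47 under the Sting-/- label and 42.4, 20 and 1.29 under the DKO label, and the groups overlapped. The maintenance pair was as uneven. Dnmt1 stood at 12.8, 52.8 and 21.8 in WT, 0, 40.2 and 122 under the Sting-/- label and 56.2, 27.2 and 119 under the DKO label. Uhrf1 stood at 1.89, 56.2 and 53.8, at 7.04, 6.36 and 51.7, and at 34.1, 15.0 and 122. Neither separated the labels. The range of fold changes over the 10 genes in DKO against WT was -3.34 to 1.25 log2, with 95% intervals several log2 units wide.

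Genes most like each member over the 46 libraries, by Pearson r of log2 CPM among 22360 genes, differed from gene to gene. Dnmt1 was nearest to Uhrf1 (0.926), Erlin1 (0.924) and Bub1b (0.918), and Uhrf1 to Cpsf4 (0.949), Bub1b (0.940), a mitotic checkpoint kinase, and Ncapg2 (0.934), a condensin subunit. Tet3 was nearest to Enoph1 (0.943), Chaf1b (0.940), a histone chaperone of replication, and Nln (0.936), and Tet1 to Zfp397 (0.877), Ralgapa1 (0.853) and Asb3 (0.847). Idh2 was nearest to Clta (0.917), Pdia3 (0.914) and Mvb12a (0.903), and Idh1 to Il11ra1 (0.872), Hdac6 (0.867) and Mfsd13a (0.848). Lower values were found for Dnmt3b (Gm12666 0.833, Spata5 0.825, Mtfmt 0.822), Tet2 (Gm38236 0.766, Atf7 0.735, Pou2f2 0.732), Tdg (Mob1a 0.728, Gm47882 0.717, Gm5597 0.695) and Dnmt3a (Aoah 0.720, Lpgat1 0.717, Parvg 0.717). Libraries of 1 population share cell make-up and depth, so these values carry no test. Tet3 was at 0 in Tet2-/- CLP replicate 2 and at 0.171 CPM per kb in WT CLP replicate 4. All other first-set libraries held at least 0.976. Tet1 and Idh1 were at 0 in WT CLP replicate 5 and Dnmt3b in WT CLP replicate 3. The part of such CLP values in these correlations was not tested. Dnmt1 and Uhrf1 were the only pair of the 10 in which 1 was among the 3 nearest genes of the other.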

How the data were processed

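RNA from cells sorted from mouse bone marrow was sequenced in bulk. The authors deposited raw counts per gene in 2 tables, 1 for each set, and these were used as deposited. The submitters' processing notes name Trim Galore 0.6.7, HISAT2, DESeq2 and the builds mm10 and mm9. The counting program, its annotation and its use of strand are not given in the sources used here. Of the second table, 2 broken lines were dropped. The report gives the range and median of library totals.

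Counts were scaled with TMM and tested with edgeR 4.0.16 (R 4.3.3) by its quasi-likelihood F test, after filterByExpr on the groups of each fit, with Benjamini-Hochberg adjustment over all genes tested. Calls required an adjusted p below 0.05 with a change of 2-fold or more, and without a fold limit for the genotype by population term. Genotypes were compared within a population, WT steps in 1 fit of all WT libraries, and the tables were never tested against each other. Log2 levels for likeness used a prior count of 2. Lengths came from GENCODE vM21 and promoter windows from RefSeq. On simulated counts the tests recovered 16.7% of 2-fold and 59.8% of 5-fold changes between genotypes in CMP (15279 genes). In LT-HSC it was 1% and 28.1% (15420), and in CLP 0% of either (12225). Across WT populations it was 0% and 22.4% (19284), and for the genotype by population term 0% and 19.4% (21684). For DKO against WT it was 0% and 3.4% (9094). Each simulation changed 100 genes 2-fold and 100 genes 5-fold and held the others at 1 level. Across WT populations 42.8% of the real genes were called, so the adjusted p cut was looser there than in the simulation. A 2-fold change also lies at the limit of the call itself, except for the genotype by population term. Recovery in the real fits can therefore differ, and a missing call is not evidence of no change. Alternatives were RLE scaling, no filter on low counts, DESeq2 1.42.0, the replicate number as a block, other samples in the fit and each library left out. The 10 genes were named in every comparison, with at most 4 called pathway genes in each direction and the 3 genes most like each member. The genes and lists were chosen with earlier results of these data known.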

Additional observations from a re-analysis of the deposited data

Results flagged for a closer look

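In groups of 4 libraries, a library was noted where its distance to the nearest other was above Dixon's 95% limit as a share of the whole range. Of 100 groups of 4 libraries tested, 7 gave such a value, where chance gives about 1 in 20, or 5. Idh2 was highest in Tet2-/- CMP replicate 2 at 110 CPM, with 58.2 next. Dnmt3a was highest in Tet2-/- GMP replicate 3 at 94.2, with 48.6 next. Tet3 was lowest in Tet2-/- MEP replicate 4 at 24.1, with 31.2 next, and in Tet2-/- ST-HSC replicate 5 at 16.3, with 33.1 next. Idh1 was highest in Tet2-/- ST-HSC replicate 3 at 83.6, with 35.0 next. Idh2 was lowest in WT GMP replicate 4 at 403, with 522 next, and Dnmt3b was highest in WT MEP replicate 3 at 17.9, with 14.2 next.

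The genotype difference in Idh2 itself differed between populations (edgeR interaction test, adjusted p = 0.000152), with log2 changes of -2.31 in CMP and -2.21 in MEP against -0.37 in GMP and 0.07 in LT-HSC.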

How the results depend on the processing

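A count of 0 allows a level of up to 3 counts, which was 0.0391 to 0.0942 CPM in CLP libraries. Outside the leave-outs, 84 counts of called genes kept within 1.5 times the main count and 9 moved. With all 46 libraries in 1 fit, 0 genes were called in GMP, where Tdg had -1.47 (adjusted p = 1). With CLP left out, chosen after seeing the data as was the removal of second-set libraries with Sting counts, 8 were called across WT populations. With only the 2 populations compared, the counts were 2 for CMP against ST-HSC, 3 for GMP against CMP, 4 for MEP against CMP and 1 for CLP against GMP. DESeq2 gave 2 for CLP against ST-HSC and 1 each for DKO and for Sting-/- against WT. The cause was not tested.

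Leaving out 1 library at a time gave 1 to 2 called genes in GMP between genotypes, 2 to 7 across WT populations and 6 to 8 across Tet2-/- populations. For the steps it gave 1 to 2 for CMP against ST-HSC, 1 to 3 for CLP against ST-HSC and 1 to 2 for MEP against CMP. Idh2 kept its call throughout in CMP (-2.63 to -2.19) and MEP (-2.44 to -2.09), and Tdg in GMP (-1.68 to -1.25). Values near 0 changed sign: Idh2 in CLP (-0.13 to 0.37), LT-HSC (-0.11 to 0.23) and ST-HSC (-0.47 to 0.25), and Tet2 in ST-HSC (-0.56 to 0.24).

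Same-numbered libraries of the 2 genotypes did not deviate together (mean correlation -0.007 to 0.017 by population), so the numbers were not taken to pair genotypes. Within a genotype, 44 of 46 libraries correlated best with their own number, a hint from the data and not from the design. With the replicate block, called genes numbered 4 across WT populations, 6 across Tet2-/- populations and 4 for CLP against GMP, and other counts were those of the fit without it. Under the block, Idh2 was -0.0077 in CLP and -0.15 in LT-HSC. Over all genes the block gave 527 calls for 734 in CMP, 658 for 723 in GMP and 526 for 651 in MEP, and 26 for 64 and 0 for 15 in the DKO comparisons with WT and Sting-/-. Dnmt3b for CLP against GMP was lost with RLE scaling (adjusted p = 0.0739), without the filter (0.0631) and with the block (0.0589). Dnmt1 and Uhrf1 across Tet2-/- populations were lost with the same 3 settings, and Dnmt3a across WT without the filter and with the block. Without division by length the Dnmt3a share was 48.9% in WT GMP and 69.6% in Tet2-/- GMP, and 10 of 12 such shares moved beyond 1 SD.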
